A study of Mus musculus with 7 samples.

Results

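The CD300 and TREM genes encode immunoglobulin-like receptors on the surface of myeloid cells, and 10 of the 19938 genes measured were followed here. They were taken by symbol: Cd300a, Cd300lf, Cd300lb, Cd300ld, Cd300e, Trem1, Trem2, Trem3, Treml4, and Tyrobp, which encodes the adaptor DAP12. Each of the 10 symbols was carried by exactly 1 probe set, so no choice between probe sets was needed. The receptors were grouped by signalling type, with 2 inhibitory ones (Cd300a, Cd300lf), 7 activating ones (Cd300lb, Cd300ld, Cd300e, Trem1, Trem2, Trem3, Treml4) and 1 adaptor (Tyrobp).

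Inhibitory receptors of this kind carry tyrosine motifs (ITIMs) in their tail that recruit phosphatases such as SHP-1 and dampen signalling. Activating ones have a short tail and a charged residue in the membrane, through which they pair with DAP12 or the FcR gamma chain, adaptors whose own motifs (ITAMs) engage the kinase SYK. Several of these receptors recognise lipids of dying cells or microbes, so they bear on how a gut macrophage responds to debris and bacteria.

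Macrophages were sorted from the lamina propria of the colon and their RNA was read on 7 Affymetrix arrays. All mice were C57BL/6 and 6 weeks old. Il10ra_mKO (2 arrays) stands for CX3CR1cre:IL10Raflox/flox mice, in which Cre made by cells that express Cx3cr1 deletes the IL-10 receptor chain Il10ra, and its comparison group is the resident WT (3 arrays) from CX3CR1gfp/+ mice. Il10_KO (1 array) stands for IL10-/- CX3CR1gfp/+ mice, and it is set against WT of the sort label CX3CR1hi (1 array), also CX3CR1gfp/+. The other 5 arrays are labelled resident, and mutants were tested only against WT of the same sort label, because the label changes together with the RNA kit as far as the protocol numbers the samples. No array carries Cre without the deletion, so the Cre allele and the loss of Il10ra cannot be told apart. Separate animals are not named for the arrays of a group, and the p-values below therefore cover array-to-array spread, which may be technical. Values are on the log2 scale, and a value under 5.86, the median of the whole table, is called dim below.

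Il10ra was at 8.05 and 7.04 in the Il10ra_mKO arrays, against 10.56, 10.76 and 11.12 in resident WT. Il10 was at 10.75 in the array labelled Il10-deficient and at 11.04 in its WT partner, so the probes give no check of that label. All 10 macrophage markers (Csf1r, Adgre1, Cd68, Cx3cr1, Fcgr1, Mertk, C1qa, C1qb, Itgam, Cd163) were above the dim value in every array. So were all 10 epithelial markers, with a mean level of 9.16 to 11.02 in Il10ra_mKO and 10.80 to 11.17 in resident WT. The low value was that of Il10ra_mKO array 2, where Car1 was at 9.19, against 13.07 in array 1. In the CX3CR1hi pair the epithelial mean was 11.06 in Il10_KO and 11.57 in WT. In sorted cells measured in bulk, fewer cells of a type and less RNA per cell cannot be told apart. The part of other cell types in the results below was not tested.

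The promoters of 8 of the 10 genes were found in the RefSeq table (GRCm38.p6). The 250 bases before the start are shown for the 3 receptors that differed most by size in Il10ra_mKO arrays, Cd300lf, Treml4 and Trem1, and for Cd300a and Trem2, which differed little. Capitals mark matches, on either strand, to the STAT-type element TTCNNNGAA, the interferon-response-type repeat GAAANNGAA, the AP-1 element TGANTCA, the NF-kB-type element GGGANTTCC and the ETS element GAGGAAG, the type bound by the myeloid factor PU.1. The Cd300lf window lies on the minus strand at chr11:115133993-115134242, the Treml4 window on the plus strand at chr17:48264045-48264294, and the Trem1 window on the plus strand at chr17:48232489-48232738. The Cd300a window lies on the plus strand at chr11:114889791-114890040 and the Trem2 window on the plus strand at chr17:48346151-48346400.
Cd300lf: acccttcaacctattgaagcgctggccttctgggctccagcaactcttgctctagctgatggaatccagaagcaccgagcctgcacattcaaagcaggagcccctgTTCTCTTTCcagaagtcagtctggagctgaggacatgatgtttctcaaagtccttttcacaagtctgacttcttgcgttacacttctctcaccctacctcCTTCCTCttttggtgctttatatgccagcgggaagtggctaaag
Treml4: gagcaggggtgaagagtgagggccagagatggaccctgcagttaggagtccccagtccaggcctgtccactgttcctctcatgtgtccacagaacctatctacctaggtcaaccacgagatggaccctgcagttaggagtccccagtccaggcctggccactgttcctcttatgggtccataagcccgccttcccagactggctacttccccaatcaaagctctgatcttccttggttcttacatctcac
Trem1: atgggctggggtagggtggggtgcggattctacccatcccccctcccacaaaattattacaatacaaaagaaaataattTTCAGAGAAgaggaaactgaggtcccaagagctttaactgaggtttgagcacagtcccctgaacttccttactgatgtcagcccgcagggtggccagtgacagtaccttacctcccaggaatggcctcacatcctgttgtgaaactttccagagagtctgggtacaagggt
Cd300a: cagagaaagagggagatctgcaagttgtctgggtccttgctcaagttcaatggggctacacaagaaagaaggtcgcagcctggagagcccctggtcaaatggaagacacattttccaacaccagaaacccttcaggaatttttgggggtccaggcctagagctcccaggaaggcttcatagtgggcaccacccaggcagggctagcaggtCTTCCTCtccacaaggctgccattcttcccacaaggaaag
Trem2: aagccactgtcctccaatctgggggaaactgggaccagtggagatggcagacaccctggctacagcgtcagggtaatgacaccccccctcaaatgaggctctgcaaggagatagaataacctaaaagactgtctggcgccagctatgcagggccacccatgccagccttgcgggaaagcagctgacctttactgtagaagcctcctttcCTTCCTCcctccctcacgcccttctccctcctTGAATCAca

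The GAAANNGAA repeat was matched 144 bases before the Cd300lf start, as it was in 7.13% of all 32851 promoter windows of that length. The TTCNNNGAA element was matched 171 bases before the Trem1 start and 184 bases before that of Cd300e, against 7.02% of all windows. The ETS element lay 44, 40 and 41 bases before the starts of Cd300lf, Cd300a and Trem2, and 143 bases before that of Cd300ld, against 10.6% of all windows. An AP-1 element, present in 6.75% of windows, lay 9 bases before the Trem2 start. The Treml4 and Cd300lb windows matched none of the 5 elements, and the NF-kB-type element, present in 1.43% of windows, was in none of the 8. A match describes letters in the window and says nothing on binding.

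In Il10ra_mKO arrays, the inhibitory receptor Cd300lf and the activating receptors Treml4, Trem1 and Trem3 were at least 2-fold higher than in resident WT. The share of all genes that differed by 2-fold in this comparison is not given here, so these 4 are not read as a trait of the receptors. The adaptor Tyrobp was 1.25-fold higher, and the remaining 5 receptors differed by 1.32-fold (Cd300a) or less. By limma 0 of the 10 passed at an adjusted p under 0.05, a threshold that 0.00502% of all genes passed. At an unadjusted p under 0.05, 5 of 10 were higher, against 4.06% of all genes, and 0 of 10 were lower, against 3.86%. Both mutant arrays lay above all 3 WT arrays for 6 of 10 genes, against 8.92% of all genes, and below them for 0 of 10, against 8.5%. The 10 genes were chosen with earlier results of these data known. Their counts beside all genes, here and below, therefore describe them and are no independent support. The median difference of the 10 was 0.36 on the log2 scale, beside 0.00 over all genes. The count of 5 was 2 without WT array 2 and 3 without Il10ra_mKO array 2, with Cd300lf and Trem1 among those left each time. With the runs of sample numbers, 54 to 56 and 67 to 68 in the labels, as a block, and also after quantile normalization, it was 6 higher and 1 lower, the lower gene being Trem2.

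**Figure D1:**
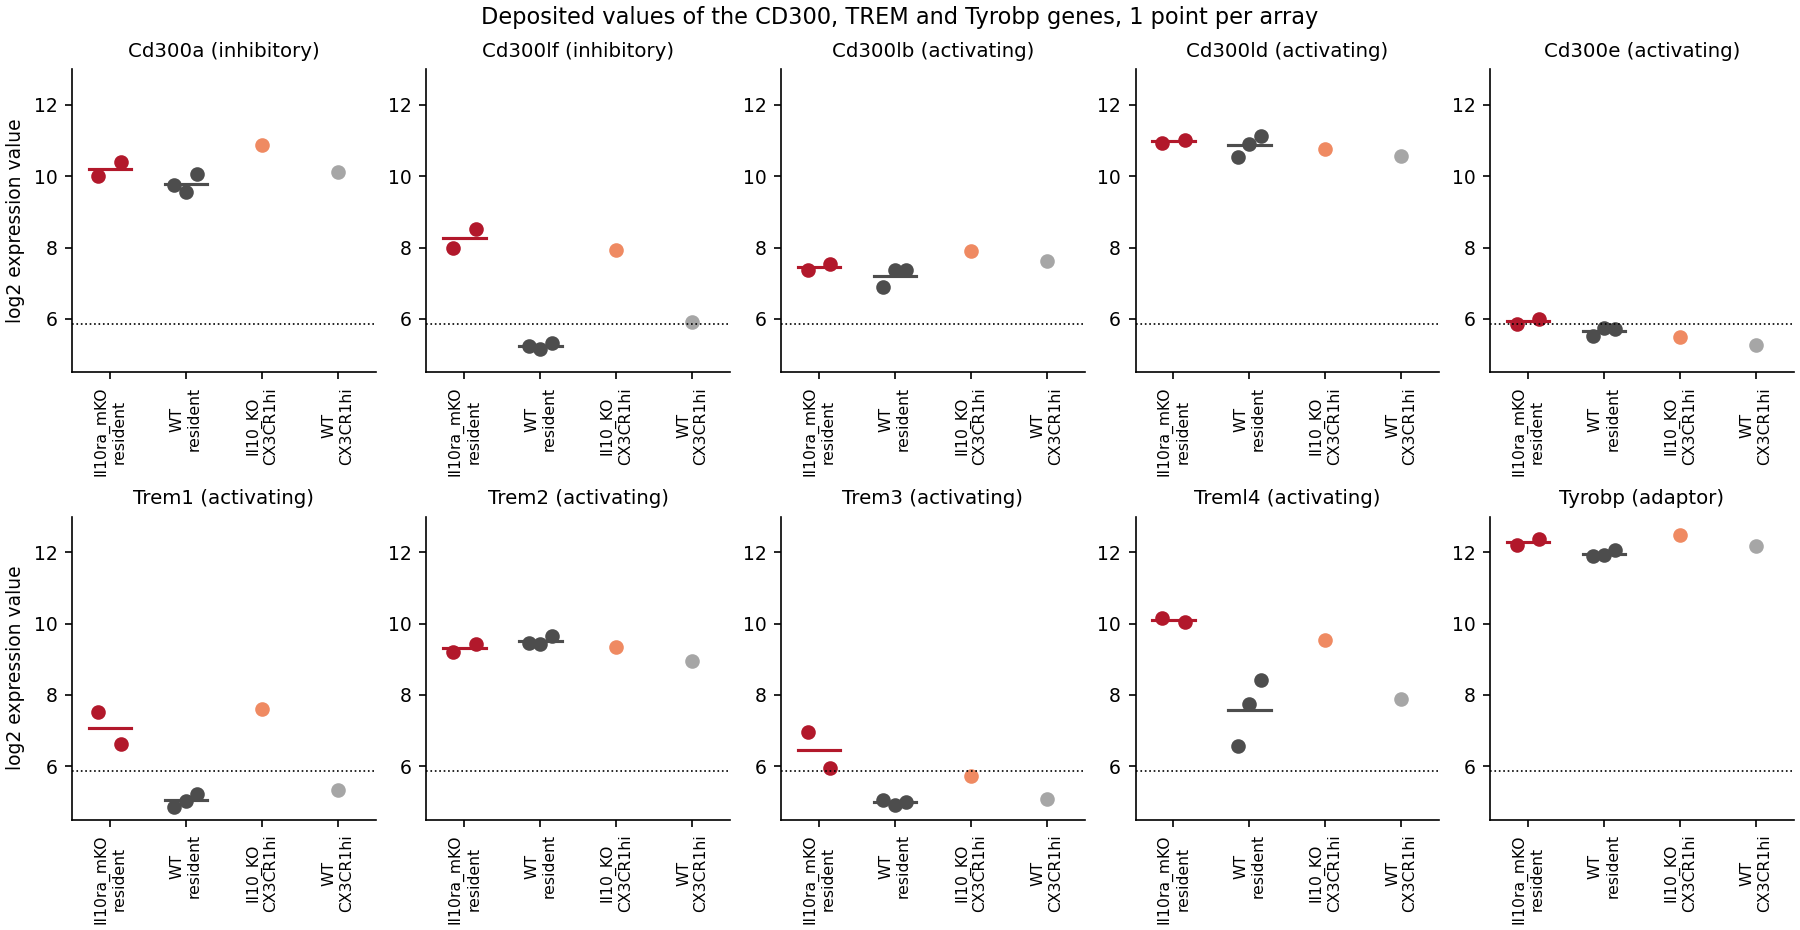
Deposited log2 expression values of the 10 genes (y axis) in each group (x axis), with 1 point per array, a line at the mean of groups with several arrays, and a dotted line at the table's median of 5.86. Both Il10ra_mKO arrays sit above the 3 resident WT arrays for Cd300lf, Cd300e, Trem1, Trem3, Treml4 and Tyrobp. The Il10_KO array sits above its WT partner in all 10 panels, but the share of all genes higher in that pair was not counted.

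Among the inhibitory receptors, Cd300lf is known to restrain myeloid activation and, in mice, to be the entry receptor of murine norovirus. It was at 8.002 and 8.53 in Il10ra_mKO, against 5.24, 5.15 and 5.31 in resident WT. In the CX3CR1hi arrays it was at 7.94 in Il10_KO and 5.90 in WT. All mutant arrays were therefore well apart from all WT arrays, and Cd300lf was dim in resident WT. The log2 difference was 3.04 ± 0.19 (SE), an 8.21-fold higher value in Il10ra_mKO that starts near the floor of the array (unadjusted p = 0.000109, adjusted p = 0.128). Over 12 alternatives the difference lay between 2.77 and 3.30 and the adjusted p between 0.00482 and 0.553, under the threshold in 5 of them. Within the runs of neighbouring sample numbers in the labels, 54 to 56 and 67 to 68, it was 2.81 and 3.22.

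Cd300a, the other inhibitory receptor, binds lipids exposed on dying cells. It was at 9.99 and 10.39 in Il10ra_mKO, against 9.76, 9.55 and 10.06 in resident WT, and the groups overlapped. The difference of 0.40 had a 95% interval of -0.21 to 1.01 (adjusted p = 0.678). Cd300a was thus bright in every array and Cd300lf was bright only in the mutant arrays, apart from 5.90 in the CX3CR1hi WT array.

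Among the activating CD300 receptors, the intervals of the differences stayed within about a single log2 unit on either side of 0. Cd300lb, which pairs with DAP12, was at 7.37 and 7.55 in Il10ra_mKO, against 6.89, 7.37 and 7.37 in resident WT, a difference of 0.25 (95% interval -0.30 to 0.80). Cd300ld, which pairs with the FcR gamma chain, was at 10.95 and 11.03 in Il10ra_mKO, against 10.55, 10.92 and 11.14 in resident WT, a difference of 0.12 (95% interval -0.45 to 0.68). Both overlapped between the groups, and the sign for Cd300ld differed between the runs of sample numbers (0.21 and -0.11). Cd300e, an activating receptor known from human monocytes, was at 5.86 and 6.00 in Il10ra_mKO, against 5.51, 5.74 and 5.72 in resident WT. Both mutant values were higher, but all 5 stood near the dim value and the difference of 0.28 ± 0.10 (SE) had an unadjusted p of 0.0501 and an adjusted p of 0.63.

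Among the TREM receptors, Trem1 amplifies inflammatory responses to microbes through DAP12. It was at 7.51 and 6.62 in Il10ra_mKO, against 4.87, 5.03 and 5.22 in resident WT, where it was dim. The groups were apart by more than a log2 unit, and the difference was 2.03 ± 0.32 (SE), 4.09-fold, with an adjusted p of 0.318. It was 1.59 without Il10ra_mKO array 1 and 2.48 without array 2.

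Trem3 is a DAP12-coupled receptor of mouse macrophages. It was at 6.97 and 5.96 in Il10ra_mKO, against 5.06, 4.91 and 5.01 in resident WT. It was dim in WT and just above the dim value in Il10ra_mKO array 2, with a difference of 1.47 ± 0.34 (SE), 2.77-fold (adjusted p = 0.433). That difference was 0.97 without Il10ra_mKO array 1 and 1.97 without array 2, so its size rested on which mutant array was kept.

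Treml4 binds dead cells and amplifies signalling of the RNA sensor TLR7 in mice. It was at 10.14 and 10.03 in Il10ra_mKO, against 6.57, 7.74 and 8.42 in resident WT. The mutant arrays were close together and the WT arrays spread over nearly a pair of log2 units, more than for any of the other 9 genes. The difference was 2.51 ± 0.62 (SE), 5.69-fold, with a 95% interval of 0.76 to 4.25 and an adjusted p of 0.464. Within runs of sample numbers it was 2.98 and 1.61.

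Trem2 senses lipids and lipoproteins and sustains phagocytosis in tissue macrophages such as microglia. It was at 9.19 and 9.43 in Il10ra_mKO, against 9.47, 9.43 and 9.66 in resident WT. It was the only one of the 10 genes with a lower mean in Il10ra_mKO, and its groups met at 9.43. The difference of -0.21 ± 0.12 (SE) did not pass (adjusted p = 0.678), and its 95% interval was -0.55 to 0.13. With runs of sample numbers as a block it was -0.25 with an unadjusted p of 0.0099 (adjusted p = 0.267), and over the 12 alternatives the adjusted p was 0.267 to 0.947.

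Tyrobp was the brightest probe set of the 10 by value, and it carries the signal of Trem1, Trem2, Trem3 and Cd300lb. It was at 12.20 and 12.37 in Il10ra_mKO, against 11.90, 11.93 and 12.05 in resident WT. The groups did not overlap, and the difference was 0.33 ± 0.09 (SE), with an unadjusted p of 0.0207 and an adjusted p of 0.489. Within runs of sample numbers it was 0.29 and 0.32. Fcer1g, the FcR gamma chain that serves Cd300ld, was at 12.98 and 13.10 in Il10ra_mKO and 12.80, 12.95 and 12.98 in resident WT, a difference of 0.13 (unadjusted p = 0.209). Fcer1g was chosen after its values were seen.

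**Figure D2:**
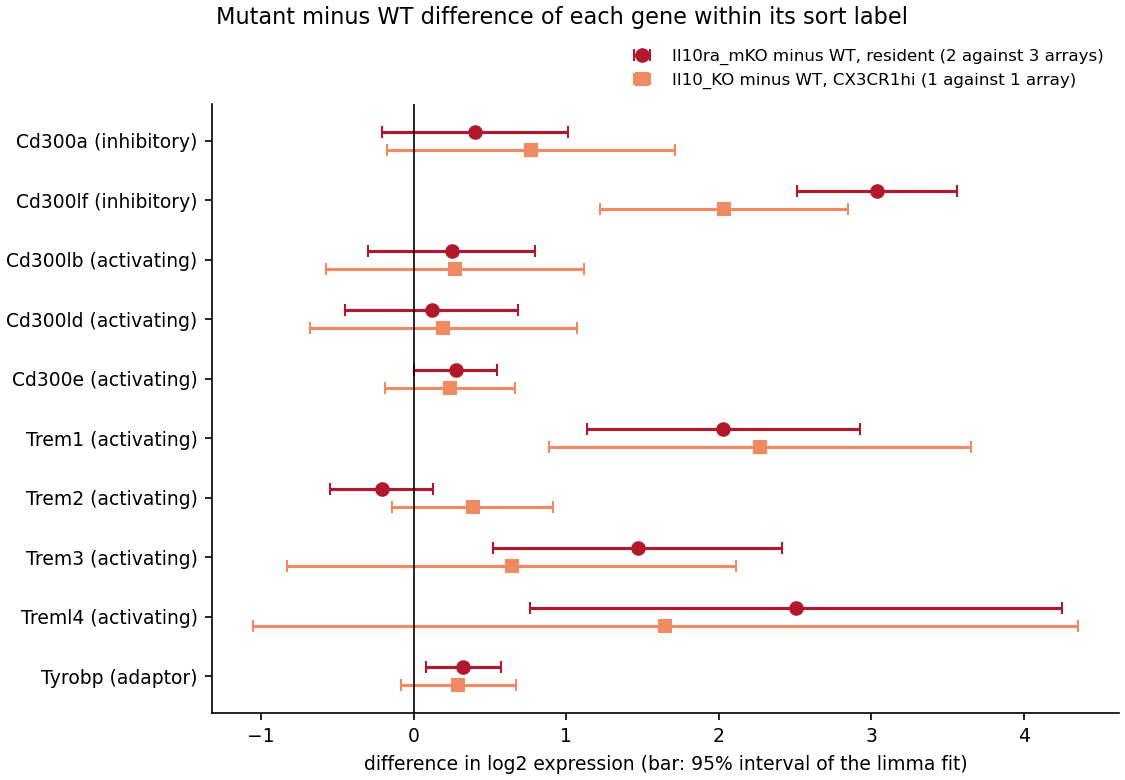
Mutant minus WT difference in log2 expression (x axis) for each gene (y axis), circles for Il10ra_mKO in the resident arrays and squares for Il10_KO in the CX3CR1hi arrays, with bars for the 95% interval of the limma fit. Cd300lf and Trem1 have intervals above 0 in both comparisons, Trem3, Treml4 and Tyrobp in the resident comparison alone, and the intervals of Trem2 and Cd300ld span 0 in both.

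In the CX3CR1hi comparison, Cd300lf, Trem1 and Treml4 were again the receptors that stood highest over WT. This comparison has 1 array on each side and so no replicates of its own. Trem1 was at 7.59 in Il10_KO, against 5.32 in WT. Treml4 was at 9.53 in Il10_KO, against 7.88 in WT. With Cd300lf, these were the 3 of 10 genes at least 2-fold higher in Il10_KO, against 0.692% of all genes, while 0 of 10 were at least 2-fold lower, against 1.22%. All 10 genes had a higher value in Il10_KO than in WT, with a median difference of 0.52 beside 0.03 over all genes. The share of all genes with a higher value was not counted, and 5 of the 10 differed by less than 1.5-fold in both mutants.

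The other 7 genes differed by less in that pair. Cd300a was at 10.88 in Il10_KO and 10.11 in WT, a 1.71-fold difference. Trem3 was at 5.73 in Il10_KO and 5.09 in WT, both dim. Trem2 was at 9.33 in Il10_KO and 8.94 in WT, and Tyrobp at 12.47 in Il10_KO and 12.18 in WT. Cd300lb was at 7.90 in Il10_KO and 7.63 in WT, Cd300ld at 10.76 and Cd300e at 5.50 in Il10_KO, against 10.57 and 5.26 in WT.

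If the CX3CR1hi arrays vary as the resident groups do, limma gives a p-value for this pair, whose SE comes wholly from the resident arrays with their other sort label. On that untested assumption Cd300lf was higher by 2.04 ± 0.29 (SE), 4.10-fold, with an adjusted p of 0.0377, and was the only gene of the 10 to pass, against 7.9% of all genes. Of those calls over all genes 87.3% were genes above the dim value in fewer than 2 arrays, a class that held 47.0% of all genes. For Cd300lf the adjusted p was 0.235 when dim genes were left out of the test and 0.06 to 0.115 under 3 other alternatives, so the call rests on the setting. Trem1 had an adjusted p of 0.0937 and Treml4 of 0.43.

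The 2 mutant effects share no array, and the difference between them was a further contrast in limma. None of the 10 genes passed by limma, against 4.7% of all genes, and 94.6% of those calls were of the same dim class. Cd300lf had the smallest p, with an effect larger by 1.00 ± 0.34 (SE) in Il10ra_mKO, an unadjusted p of 0.0454 and an adjusted p of 0.3. For Trem2 the effects had opposite signs, -0.21 in Il10ra_mKO and 0.39 in Il10_KO. Their difference was -0.60 ± 0.22 (SE), with an adjusted p of 0.34. For Trem1 the difference was -0.24 with a 95% interval of -1.89 to 1.41, which does not show that the effects were alike.

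The WT arrays of the sort labels were compared without a test, since the label cannot be told apart from the kit. The CX3CR1hi WT array lay above the range of the 3 resident WT arrays for 6 of the 10 genes, below it for 2 and within it for 2. How often all genes fall outside that range was not counted, so these counts are not a trait of the receptors. In the CX3CR1hi WT array Trem2 was 0.58 below the resident WT mean and Cd300e 0.39 below, while Cd300lf was 0.67 above. The levels of Cd300lf thus ran, from the top, from the Il10ra_mKO arrays and the Il10_KO array (7.94 to 8.53) to CX3CR1hi WT (5.90) and then resident WT (5.15 to 5.31). The Il10_KO value and that of Il10ra_mKO array 1 differed by less than the spread between the 2 Il10ra_mKO arrays. These values come from different sort labels and so, as far as the protocol tells, different kits. Their closeness therefore does not show how the mutants compare.

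To compare inhibitory with activating receptors, each gene was first set against its own WT mean of the same sort label, because levels of different probe sets cannot be compared. The 2 inhibitory receptors then averaged 1.49 and 1.95 in the Il10ra_mKO arrays and 1.40 in the Il10_KO array. The 7 activating receptors averaged 1.02 and 0.82 in the Il10ra_mKO arrays and 0.81 in the Il10_KO array. Both classes were higher in every mutant array, and the inhibitory mean exceeded the activating mean by 0.47 and 1.13 in Il10ra_mKO. In resident WT this gap was -0.20 to 0.26. Each resident WT array is part of its own baseline, which narrows that range, so it is no yardstick for the gap in Il10ra_mKO. Cd300lf, Trem1 and Trem3 were dim in resident WT, where the array scale is compressed, so these gaps describe array values and do not size the change in RNA.

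This class difference of 0.80 in Il10ra_mKO and 0.59 in Il10_KO was carried by Cd300lf, since Cd300a on its own stood at 0.40 and 0.77. Within the activating class the differences in Il10ra_mKO ran from -0.21 for Trem2 to 2.51 for Treml4 with a median of 0.28. In Il10_KO they ran from 0.19 for Cd300ld to 2.27 for Trem1 with a median of 0.39. The spread within a class was therefore wider than the gap between the classes. No test was made of a class of 2 genes. The class difference was 1.13 without Il10ra_mKO array 1 and 0.47 without array 2.

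**Figure D3:**
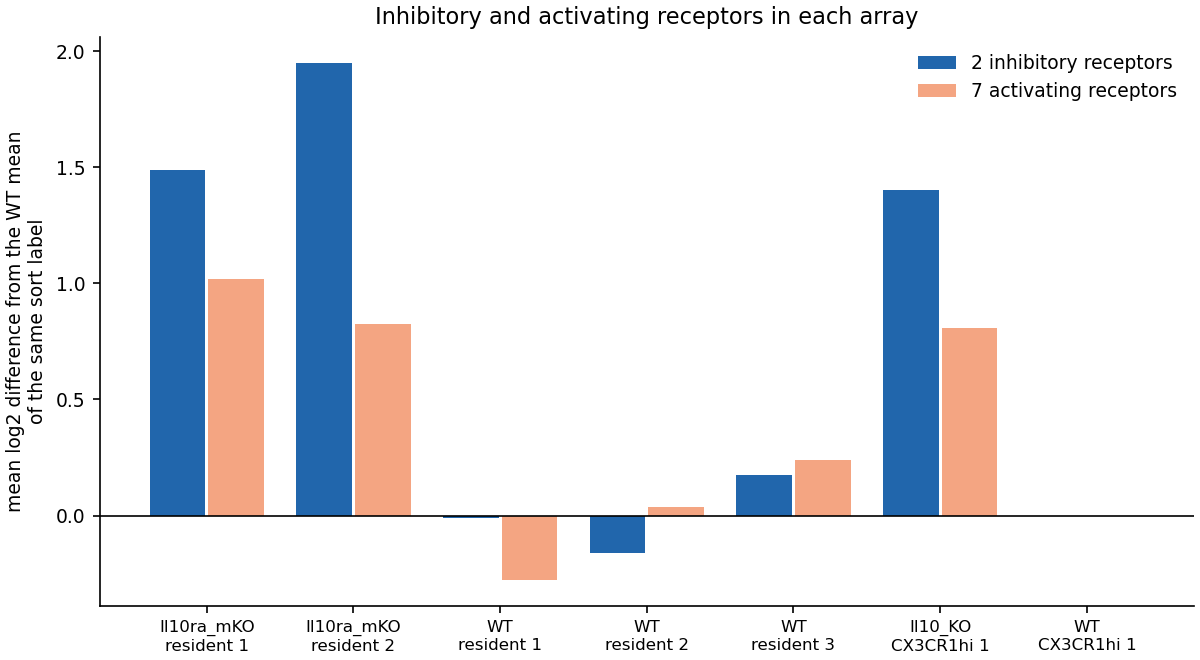
Mean log2 difference of the inhibitory and the activating receptors from their own WT mean of the same sort label (y axis), for each array (x axis). The WT CX3CR1hi array is its own baseline and so stands at 0, and the resident WT arrays are part of theirs. In each of the 3 mutant arrays the inhibitory bar (1.40 to 1.95) is taller than the activating bar (0.81 to 1.02).

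The genes lie in 2 clusters, and neighbours in them differed. By the gene order of GRCm38.p6, Cd300a, Cd300lb, Cd300ld, Cd300e and Cd300lf follow each other in that order on chromosome 11 among further Cd300 genes, and Cd300lf is the last of them. Cd300lf stood 3.04 higher in Il10ra_mKO, while Cd300e, the Cd300 gene next to it, stood 0.28 higher. On chromosome 17 Trem1, Trem3 and Treml4 lie next to each other, with Treml2, Trem2 and Treml1 further on. The first 3 were 2.03, 1.47 and 2.51 higher in Il10ra_mKO, Treml2 was 0.72 higher, and Trem2 and Treml1 were at -0.21 and -0.06.

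**Figure D4:**
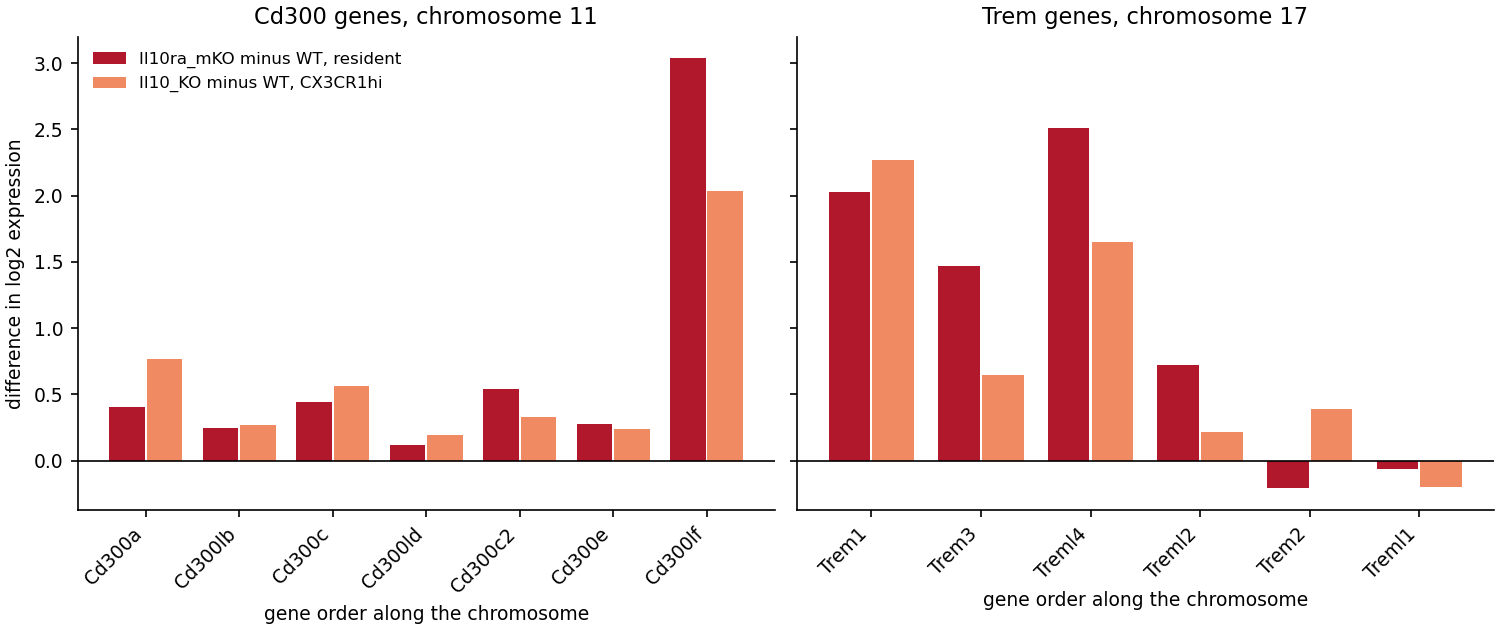
Mutant minus WT difference in log2 expression (y axis) of the Cd300 genes on chromosome 11 and the Trem genes on chromosome 17, in gene order (x axis), for genes with a probe set of their own. Cd300lg, which lies apart from the other Cd300 genes on chromosome 11, is left out (-0.14 in Il10ra_mKO and -0.02 in Il10_KO). Cd300lf at 3.04 and 2.04 stands out at 1 end of its cluster, and Trem1, Trem3 and Treml4 stand together at the start of theirs.

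Beyond the 10 genes, 7 of 13 listed relatives had a probe set of their own, and 2 of the 7 were higher at an unadjusted p under 0.05 with 0 lower, against 4.06% and 3.86% of all genes. Treml2, a TREM-like receptor, was at 6.77 and 6.79 in Il10ra_mKO, against 6.24, 5.89 and 6.04 in resident WT (0.72 ± 0.12, SE, unadjusted p = 0.00406). Cd300c was 0.44 ± 0.13 higher (unadjusted p = 0.0273), and Cd300c2 0.54 ± 0.19 higher (unadjusted p = 0.0504). No gene of the lists in this and the following paragraphs passed over all genes in the Il10ra_mKO comparison, so all p-values given for them are unadjusted. The lists, like the 10 genes, were chosen with earlier results of these data known.

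Other receptors that use DAP12 or the FcR gamma chain had a median difference of 0.49, with 6 of 13 higher and 1 lower at an unadjusted p under 0.05, against 4.06% and 3.86% of all genes. The same shares of all genes apply to the counts of the lists that follow. Clec5a, a DAP12-coupled lectin of myeloid cells, was at 10.11 and 10.30 in Il10ra_mKO, against 9.01, 8.86 and 9.49 in resident WT (1.08 ± 0.23, SE, unadjusted p = 0.0101). Klrk1, the receptor NKG2D, was 1.59 ± 0.27 higher (unadjusted p = 0.00466). Siglech, a DAP12-coupled lectin used as a marker of plasmacytoid dendritic cells, went the other way, at 5.43 and 5.45 in Il10ra_mKO, against 7.22, 6.80 and 7.14 in resident WT (-1.61 ± 0.15, SE, unadjusted p = 0.000519). Receptors that share an adaptor thus did not move in a single direction.

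The signalling chain behind the adaptors had a median of 0.40, with 5 of 18 measured genes higher (4.06% of all genes) and 0 lower (3.86%). Syk, the kinase that binds phosphorylated DAP12, was at 9.99 and 10.25 in Il10ra_mKO, against 9.65, 9.56 and 9.77 in resident WT (0.46 ± 0.12, SE, unadjusted p = 0.0178). The kinase gene Src was 0.56 ± 0.15 higher (unadjusted p = 0.02). Hcst, which encodes the adaptor DAP10, was 0.28 ± 0.07 higher (unadjusted p = 0.0151) but dim in the resident arrays.

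On the inhibitory side, 3 of 18 other inhibitory receptors of myeloid cells were higher (4.06% of all genes) and 0 lower (3.86%), with a median of 0.14. Clec12a, an ITIM lectin that senses uric acid crystals, was at 10.22 and 10.41 in Il10ra_mKO, against 8.70, 8.77 and 9.22 in resident WT (1.42 ± 0.20, SE, unadjusted p = 0.00252). Slamf8 was 1.63 ± 0.35 higher (unadjusted p = 0.0111) and Pirb, an ITIM receptor for MHC class I, 0.74 ± 0.17 higher (unadjusted p = 0.0125). Of the 9 phosphatase and inhibitory adaptor genes 1 was higher, Ptpn6, which encodes SHP-1 (0.46 ± 0.11, SE, unadjusted p = 0.014). Dok3 and Dok1, adaptors of inhibitory signalling, were 0.36 ± 0.16 and 0.54 ± 0.26 higher with overlapping groups.

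Of 11 genes listed as ligands or shedding enzymes, 0 were higher and 1 was lower, Apob, which was dim in all 5 resident arrays (-0.21 ± 0.03, SE, unadjusted p = 0.00295). Clec1b, on that list without an established role as a ligand of these receptors, was 0.36 ± 0.18 higher without passing. The shedding protease gene Adam17 was 0.45 ± 0.27 higher, also without passing. Among 14 genes that accompany Trem2 in lipid-laden phagocytes, 3 were higher and 1 lower, with a median of 0.39. Cst7, a protease inhibitor, was at 8.23 and 7.68 in Il10ra_mKO, against 5.60, 5.21 and 5.23 in resident WT (2.61 ± 0.23, SE, unadjusted p = 0.000447), and the fatty acid-binding protein gene Fabp5 was 1.95 ± 0.33 higher (unadjusted p = 0.00464). The tetraspanin gene Cd9 was 0.45 ± 0.11 lower (unadjusted p = 0.0178). Apoe, a ligand of Trem2, was at 13.27 and 13.43 in Il10ra_mKO, against 13.41, 13.44 and 13.36 in resident WT, a difference of -0.05 (unadjusted p = 0.513), and was chosen after its values were seen.

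The genes whose pattern over the 7 arrays lay nearest to that of Cd300lf were F10 (also on the monocyte marker list), Clec9a (also on the dendritic cell marker list), Procr, Cfb and Ccl5, among 9575 named genes above the median brightness. With each gene set against its own WT mean of the sort label, their root mean square difference from Cd300lf was 0.28, 0.29, 0.34, 0.34 and 0.36 log2 units. For Treml4 they were Pdcd1lg2, Parvg, Gbp4, Cfb and Mmp25, at 0.35, 0.37, 0.39, 0.40 and 0.47 log2 units. Cfb, which encodes complement factor B, was near to both, at 10.75 and 10.55 in Il10ra_mKO, 7.81, 8.09 and 8.17 in resident WT, 10.28 in Il10_KO and 8.62 in CX3CR1hi WT. Of the other 9 genes of the receptor group, Trem3 and Cd300e were below that median brightness and could not be picked. None of the rest was among the 5 nearest to either. These genes were picked for the likeness itself, over arrays that share a sort label and kit.

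**Figure D5:**
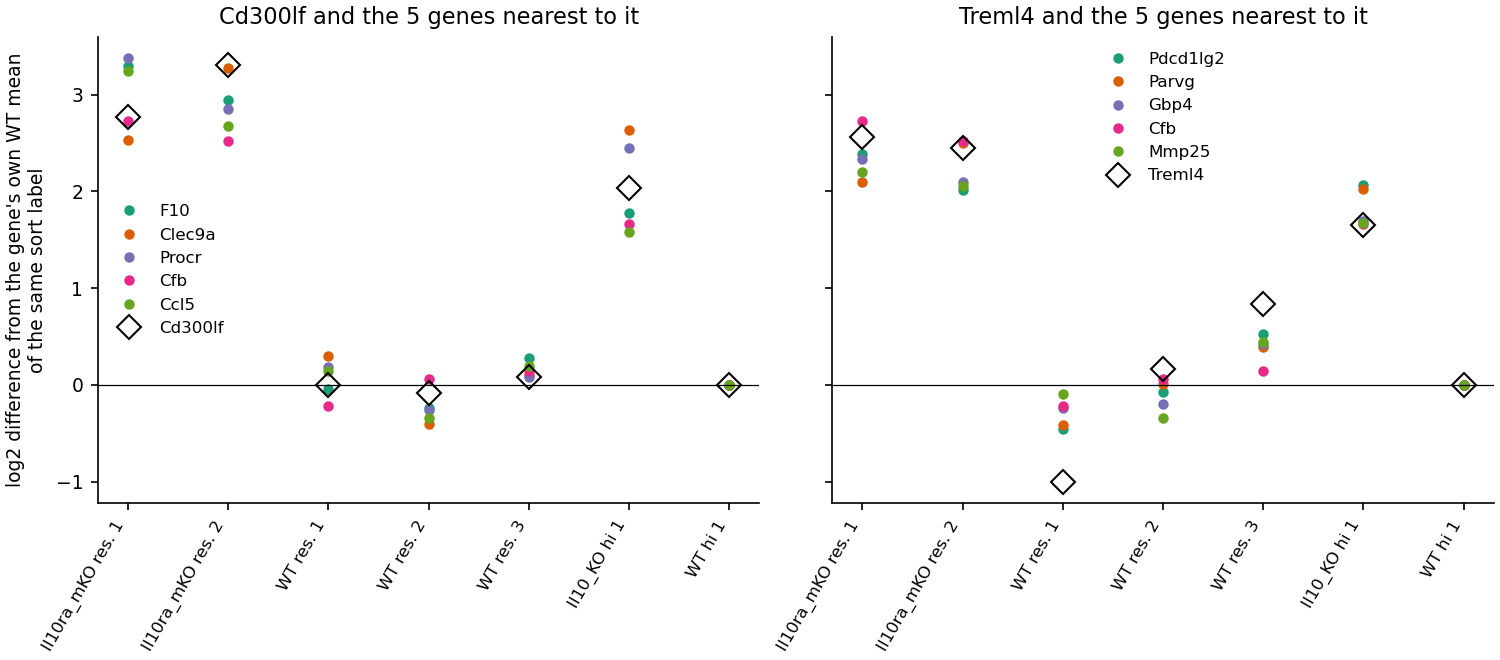
Log2 difference from the gene's own WT mean of the same sort label (y axis) in each array (x axis; res. for resident, hi for CX3CR1hi), with diamonds for Cd300lf and Treml4 and points for the 5 genes nearest to each. The points follow the diamonds in the mutant arrays, while Treml4 lies lowest of its set in resident WT array 1 and highest in array 3.

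Markers of other cells that carry these receptors were set beside them. Neutrophils, known for Trem1 and Trem3, had 12 measured markers, of which 2 to 5 were above the dim value in Il10ra_mKO and 2 in each resident WT array. Their mean level was 5.72 to 6.07 in Il10ra_mKO and 5.51 to 5.55 in resident WT, and it was 5.60 in Il10_KO and 5.42 in CX3CR1hi WT. Csf3r was the 1 marker of 12 higher at an unadjusted p under 0.05, against 4.06% of all genes, and 7 of 12 had both mutant arrays above all WT arrays, against 8.92% of all genes. Camp, Cxcr2, Elane, Ltf, Mmp8, Mpo and Ngp were dim in all 7 arrays, and S100a8 was at 5.92 and 5.28 in Il10ra_mKO, against 5.08, 5.11 and 4.96 in resident WT. Trem1, Trem3 and all the neutrophil markers but Csf3r and Mpo had their higher mutant value in Il10ra_mKO array 1. Csf3r was at 9.60 in Il10ra_mKO array 1 and 10.01 in array 2, and the dim Mpo at 4.71 and 4.73. In the CX3CR1hi pair 10 of the 12 markers, S100a8 and S100a9 among them, were dim in both arrays. The other markers were bright in both, Ly6g at 9.52 in Il10_KO and 9.36 in WT, and Csf3r at 9.95 in Il10_KO and 9.24 in WT.

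Monocyte markers did not move together. Their mean level was 7.64 to 8.24 in Il10ra_mKO and 7.77 to 7.88 in resident WT, with F10 higher, F13a1 and Fn1 lower, and Ccr2 at 10.65 and 10.64 in Il10ra_mKO, against 9.75, 10.54 and 11.33 in resident WT. Dendritic cell markers had a mean of 6.81 to 7.13 in Il10ra_mKO and 6.14 to 6.39 in resident WT. Of the 8, 3 were higher at an unadjusted p under 0.05 and 1 lower, against 4.06% and 3.86% of all genes. The higher ones were Clec9a (2.91), Ccr7 (2.31) and Xcr1 (0.74), the lower one was Dpp4 (-0.32), and Flt3, Zbtb46 and Itgae were dim in all 7 arrays. Irf4 was at 6.11 and 7.18 in Il10ra_mKO, against 6.84, 7.15 and 7.16 in resident WT. In Il10_KO Clec9a was at 8.44, against 5.80 in CX3CR1hi WT, and Ccr7 at 8.44 in Il10_KO, against 6.38 in CX3CR1hi WT. Of 10 mast cell markers, 8 were dim in all 7 arrays, and all 6 eosinophil markers were. The plasmacytoid dendritic cell list, which holds Siglech, had a mean of 6.52 to 6.63 in Il10ra_mKO and 6.72 to 6.80 in resident WT. Fibroblast and muscle markers were lower, with a mean of 6.71 to 6.79 in Il10ra_mKO and 7.25 to 7.80 in resident WT. At an unadjusted p under 0.05, 6 of these 9 markers were lower, against 3.86% of all genes. In the CX3CR1hi pair their mean was 6.52 in Il10_KO and 7.25 in WT. B and plasma cell markers averaged 7.75 to 8.39 in Il10ra_mKO and 7.45 to 7.71 in resident WT. T cell, NK cell and ILC markers averaged 5.84 to 5.94 in Il10ra_mKO and 5.72 to 5.73 in resident WT, and endothelial and glial markers 6.00 to 6.13 in Il10ra_mKO and 6.22 to 6.53 in resident WT. What part these cells had in the receptor values was not tested.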

How the data were processed

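The authors deposited 1 table of log2 expression values per probe set for 7 arrays. Per the submitters' processing notes the tools were RMA, which corrects background, normalizes and summarises probes, and Partek. No source used here gives their versions, a genome build or the set of arrays normalized jointly. RMA pulls dim values together, so folds of dim genes are understated, and probe sets of close paralogues such as the Cd300 genes can share signal. Of 35399 rows 21789 had exactly 1 symbol, and for each of 19938 genes the row with the highest mean was kept. Rows that several Cd300ld relatives share were not used.

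Groups are genotype by sort label. Replicate numbers follow accession order and only name the arrays. Differences were tested across all genes with limma 3.58.1 in R 4.3.3 (a mean per group, eBayes with a variance trend, 3 residual degrees of freedom plus a prior of 0.831), two-sided, with Benjamini-Hochberg adjustment over all genes, and the fit was tested on simulated data. The number of arrays limits the precision. The named genes are all 10 members, Il10ra, Il10, the 3 genes of smallest p in each pathway list, and the 5 genes nearest in pattern to the inhibitory and the activating receptor with the largest difference. Members, lists and tests were chosen with earlier results of these data known, and the promoter elements after the values were seen. Alternatives left out dim genes, the variance trend, the CX3CR1hi arrays or 1 array at a time, averaged a gene's rows, renormalized the arrays or took runs of neighbouring numbers as a block.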

Additional observations from a re-analysis of the deposited data

How the results depend on the processing

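In Il10ra_mKO against resident WT the directions of 9 of the 10 genes were the same under all 12 alternatives. That of Cd300ld was not, with -0.039 to 0.253 when single arrays were left out (-0.039 without resident WT array 1). Leaving out dim genes, the variance trend or the CX3CR1hi arrays, or averaging a gene's rows, could not change these differences. Each of the 10 genes had 1 probe set and the fit takes a mean per group, so the other alternatives alone bear on direction. The count of the 10 genes at an unadjusted p under 0.05 was 2 to 5 with single arrays left out, and the inhibitory minus activating difference 0.471 to 1.127. The number of all genes called moved much more. For Il10ra_mKO it was 1, and 12 with the brightness filter, 4 without the variance trend, 114 after quantile normalization, 146 after median centring, 0 with runs of sample numbers as a block and 0 to 267 with single arrays left out. For Il10_KO it was 1576, and 2, 758, 21 and 31 under the first 4 of these. For the difference of the effects it was 937, and 1, 30, 8, 17 and 0 under the first 5, and 0 to 2200 with single arrays left out. The cause was not tested beyond the share of dim genes given above. Small differences between the effects changed sign. After quantile normalization they were 0.026 for Cd300lb, 0.51 for Trem1 and -0.043 for Tyrobp. With single arrays left out they were -0.182 to 0.068 for Cd300lb, -0.232 to 0.06 for Cd300ld, -0.04 to 0.103 for Cd300e, -0.686 to 0.205 for Trem1 and -0.05 to 0.115 for Tyrobp. No paired analysis was possible because the labels give no replicate numbers that groups share, so runs of neighbouring sample numbers served as the block. Leaving out 1 Il10ra_mKO array leaves a lone mutant array, assumed to vary like the other groups.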
